A study of Homo sapiens with 6 samples.

Results

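AP-1 is a family of dimeric transcription factors built from FOS and JUN proteins. Several of its genes belong to the immediate early genes, which cells switch on without new protein synthesis. The expression of 10 AP-1 and early response genes was followed here across 6 mRNA-seq libraries. These comprised FOS, FOSL1 and FOSL2 of the FOS family, and JUN, JUNB and JUND of the JUN family. The others were the zinc finger factor gene EGR1, the small immediate early genes IER2 and IER3, and SRF, the gene of serum response factor. The 10 genes were taken by name, as the rows of the all-gene table that carry these symbols, with earlier results of these data known. All 10 were present among 11846 genes, and all 10 passed the filter on low values.

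The libraries came from AGS, an established line of human gastric adenocarcinoma cells, and the question was which mRNAs differ after knockdown of ANXA2P1, a pseudogene of the annexin A2 gene. The control group (NC, 3 libraries) carried scr-shRNA, a scrambled short hairpin RNA, and the knockdown group (kd, 3 libraries) carried an shRNA pool against ANXA2P1, per the labels. The methods of the study instead describe both groups as CRISPR interference, with dCas9-KRAB and a scrambled or an ANXA2P1 guide. Both groups share the line, the medium with 10% serum and the mRNA preparation, no time after knockdown is stated, and the level of ANXA2P1 was not analysed here, which leaves the labels unchecked by the targeted gene.

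Immediate early genes answer serum growth factors, stress and cytokines within minutes. Growth factor signals reach the ERK, JNK and p38 kinases, which act on SRF and its ETS partners at CArG boxes, short A and T rich elements in the promoters of FOS, EGR1 and SRF itself. FOS proteins pair with JUN proteins at AP-1 sites, and many of their mRNAs are short-lived because AU-rich letters in the 3′ untranslated region (3′UTR) are bound by decay factors. In epithelial tumor cells AP-1 is known for its links to proliferation, invasion and inflammation.

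Depth and library quality touch several results. Recovered totals ran from 19009778 to 22918091 reads per library, with a median of 807 reads per gene. Knockdown library 1 stood apart, with a chi-square per degree of freedom of 22.24 and 36.21 against the other knockdown libraries. Those differed from each other by 7.729. Among the controls, library 2 differed from 1 and 3 by 10.37 and 7.424, while 1 and 3 differed by 2.849. No pair agreed within sampling noise, so none was counted as a duplicate. All 7 gastric epithelial markers were in the table, with a summed level of 1453 to 1546 FPKM in the control and 1519 to 1699 FPKM in the knockdown libraries. Of 10 fibroblast, endothelial and blood markers only COL1A1 was in the table, at 1.38 to 1.62 and 1.50 to 1.57 FPKM. In bulk RNA, fewer cells that express a gene and less of its RNA per cell cannot be told apart.

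The promoter letters of 5 of these genes are shown first, because they hold the CArG boxes, the cyclic AMP response element (CRE) cores or the JUN-type AP-1 element that the next paragraph counts. The sequences are from RefSeq (GRCh38.p14), 5′ to 3′ on the strand of the gene, and capitals mark the motif. EGR1 lies at chr5:138465359-138465478 on the plus strand and SRF at chr6:43171149-43171268 on the plus strand, each with 2 CArG boxes (CC, 6 A or T bases, GG) in capitals. The EGR1 window also holds a CRE core, 67 bases before the start, which is left in lower case. JUND lies at chr19:18281623-18281742 on the minus strand, with ACGTCA, the reverse complement of the CRE core TGACGT, in capitals. For these 3 genes the 120 bases before the RefSeq start are given. For FOS (chr14:75278752-75278781, plus strand, CRE core in capitals) and JUN (chr1:58784096-58784125, minus strand, TGACATCA in capitals) only the 30 bases around the motif are given. In the GENCODE annotation used below, FOS and JUN start further upstream than in RefSeq. The whole JUN window lies inside its GENCODE gene, and the FOS window overlaps the first bases of its own.
EGR1: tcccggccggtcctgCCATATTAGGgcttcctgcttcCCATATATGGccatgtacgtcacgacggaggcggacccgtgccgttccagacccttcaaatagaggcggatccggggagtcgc
SRF: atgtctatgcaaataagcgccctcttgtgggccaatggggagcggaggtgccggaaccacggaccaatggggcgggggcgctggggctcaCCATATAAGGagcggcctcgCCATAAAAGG
JUND: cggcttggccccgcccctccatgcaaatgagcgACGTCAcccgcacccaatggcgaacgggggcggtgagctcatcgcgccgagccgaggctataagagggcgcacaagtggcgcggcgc
FOS: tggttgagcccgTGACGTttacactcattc
JUN: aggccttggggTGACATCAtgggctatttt

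Of the 10 genes, 8 had a promoter among the 35116 searched, all but FOSL1 and IER3, whose promoters were not searched. Each promoter covers 250 bases before and 50 bases after its start, and both strands were searched. A CArG box was found in 1.29% of all promoters and in 2 of the 8, EGR1 and SRF. The first bases of these boxes lay 105 and 83 bases before the start of EGR1 and 30 and 10 bases before that of SRF. Letters further upstream were not searched, so a gene without a match, such as FOS, may hold a CArG box outside this range. The CRE core TGACGT was found in 7.98% of all promoters and in FOS, FOSL2, JUND and EGR1. Its full form TGACGTCA, which contains the core, was found in 1.85% of all promoters and in JUND alone among the 8. This full form began 200 bases before the start of JUND, outside the window shown, where the capitals mark a core alone. The JUN-type element TGACATCA was found in 2.61% of promoters and in JUN, and the AP-1 element TGANTCA in 7.71% and in FOSL2. GCGNGGGCG, which EGR1 protein is known to bind, was found in 9.43% of promoters and in EGR1 and SRF, and TATAAA in 11.5% and in FOS, JUNB and SRF. A match is a run of letters and was not tested as a site.

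The genes are placed as follows in the GENCODE 29 annotation (hg38), and all are protein-coding. FOS lies on chromosome 14 (75278774 to 75282230, plus strand), FOSL1 on chromosome 11 (65892049 to 65900573, minus) and FOSL2 on chromosome 2 (28392448 to 28417312, plus). JUN lies on chromosome 1 (58780788 to 58784327, minus) as a single exon. JUNB (12791496 to 12793315, plus), JUND (18279760 to 18281622, minus) and IER2 (13150415 to 13154908, plus) lie on chromosome 19. EGR1 lies on chromosome 5 (138465490 to 138469315, plus), and IER3 (30743199 to 30744554, minus) and SRF (43171299 to 43181507, plus) lie on chromosome 6. JUNB, FOSL2, IER2 and IER3 overlap a gene on the opposite strand (HOOK2, FLJ31356, AC011446.2 and IER3-AS1), and FOSL2 also overlaps AC104695.3 on its own strand. No source used here states whether the counting used strand, so reads of these 4 genes may include those of their overlapping partners.

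In the control libraries JUND had the highest level of the 10 genes, and FOS and FOSL1 had the lowest. FPKM is scaled per length, so levels can be set side by side. The control mean was 68.6 ± 3.91 FPKM for JUND and 44.3 ± 2.41 FPKM for JUN (SD, n = 3 here and below), and both stood clear of each other and of the rest. JUNB (16.8 ± 0.279 FPKM), FOSL2 (16.4 ± 0.240 FPKM) and SRF (16.3 ± 0.329 FPKM) followed with overlapping control values. IER3 (13.5 ± 1.13 FPKM), EGR1 (12.5 ± 2.90 FPKM) and IER2 (11.1 ± 0.593 FPKM) formed the next overlapping run. FOSL1 (7.48 ± 1.11 FPKM) and FOS (6.91 ± 0.552 FPKM) overlapped each other and lay below the other 8. After knockdown SRF, at 18.2 ± 0.459 FPKM, stood next after JUN in the order, and EGR1, at 7.26 ± 1.84 FPKM, lay below IER3 in every library of the group.

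**Figure D1:**
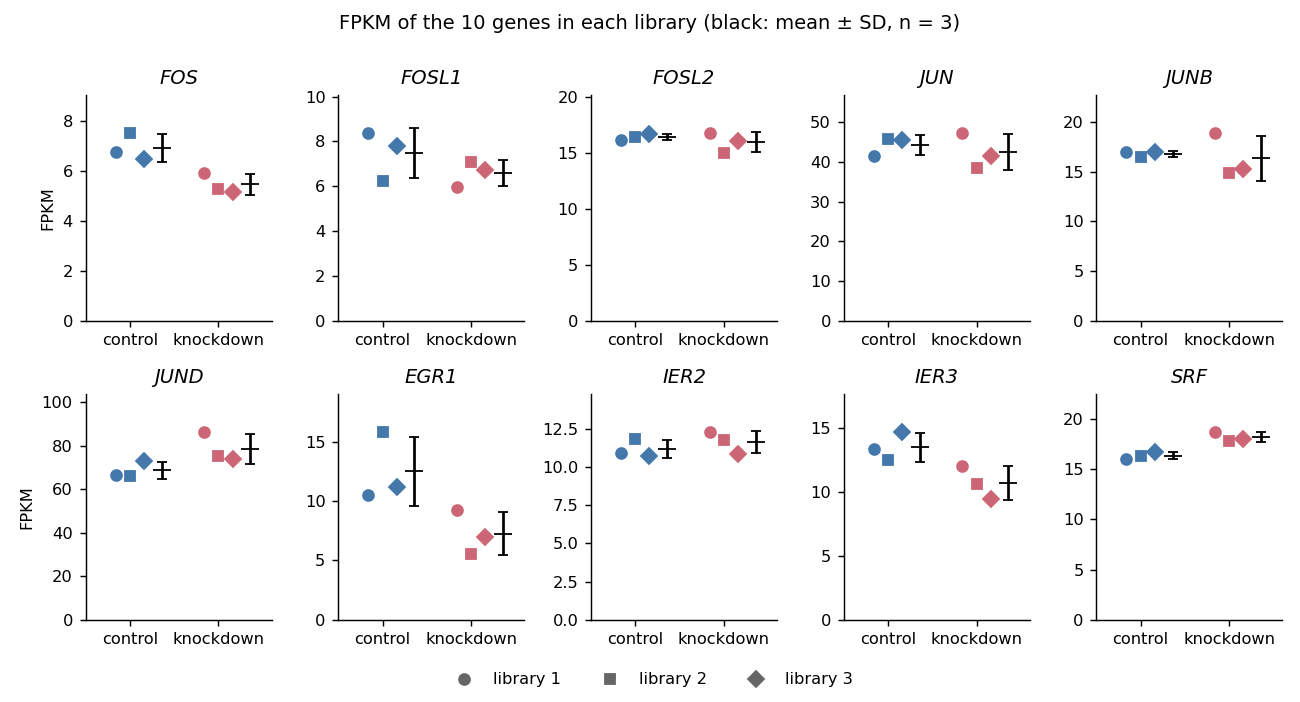
FPKM (linear axis from 0, 1 panel per gene) of the 10 genes in the 3 control (blue) and 3 ANXA2P1 knockdown (red) libraries, with symbols for library numbers and black bars for mean ± SD. FOS, EGR1 and IER3 lie lower in all knockdown libraries than in any control library, JUND and SRF lie higher, and the other 5 genes overlap.

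None of the 10 genes passed the limma test after Benjamini-Hochberg adjustment over 10813 genes, a threshold that 0.129% of all genes passed. At an unadjusted p under 0.05, 3 of the 10 were lower after knockdown (FOS, EGR1 and IER3), where 5.92% of all genes were, and 2 were higher (JUND and SRF), where 4.71% of all genes were. The same 3 and 2 genes had groups that did not overlap, beside 9.13% of all genes that were lower and 9.86% that were higher without overlap. Log2 fold changes were negative for 7 and positive for 3 of the 10, where 46.9% of all genes tested were negative. Their median was -0.06 beside 0.01 over all genes tested. The counts describe these genes and are not a test of the list.

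FOS, the founding partner of JUN in AP-1, had 6.76, 7.53 and 6.46 FPKM in control libraries 1, 2 and 3 and 5.93, 5.29 and 5.14 FPKM in knockdown libraries 1, 2 and 3. Every knockdown library lay below every control library, and knockdown 1 came nearest to the controls. The knockdown mean of 5.45 ± 0.418 FPKM was 78.9% of the control mean. The log2 fold change was -0.34 (SE 0.0875, 95% interval -0.54 to -0.14), with an adjusted p of 0.211 by limma, so the difference did not pass. FOS was covered by 368 to 538 reads per library, which sets a counting error of 4.73% beside a spread of 7.98% between the controls. Such errors cover the counting of reads alone.

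FOSL1, which encodes the FOS family protein FRA-1, had 8.39, 6.24 and 7.80 FPKM in the control and 5.95, 7.09 and 6.70 FPKM in the knockdown libraries. The groups overlapped, because control 2 lay below knockdown 2 and 3. The log2 fold change of -0.17 (SE 0.119, 95% interval -0.45 to 0.10, limma adjusted p = 0.653) was within the spread of the controls, which had a coefficient of variation of 14.9%. With 227 to 374 reads per library, FOSL1 had the lowest coverage of the 10 genes, and IER3 had the next lowest.

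FOSL2, which encodes FRA-2, had 16.2, 16.4 and 16.6 FPKM in the control and 16.8, 15.0 and 16.1 FPKM in the knockdown libraries. Knockdown 1 was the highest of the 6 libraries and knockdown 2 the lowest. The log2 fold change was -0.04 (SE 0.0641, 95% interval -0.19 to 0.11, limma adjusted p = 0.847). Of the FOS family, only FOS itself had groups without overlap.

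JUN, whose protein binds DNA as a homodimer or with FOS, had 41.5, 45.9 and 45.5 FPKM in the control and 47.4, 38.6 and 41.5 FPKM in the knockdown libraries. The groups overlapped, with knockdown 1 again the highest of the 6 libraries. The log2 fold change was -0.06 (SE 0.0871, 95% interval -0.26 to 0.14, limma adjusted p = 0.831), an interval that leaves room for a small difference in either direction.

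JUNB, a JUN family member that can oppose JUN, had 17.0, 16.5 and 17.0 FPKM in the control and 18.9, 14.8 and 15.3 FPKM in the knockdown libraries. Knockdown 1 lay above all controls and knockdown 2 and 3 lay below all controls. The spread between knockdown libraries, 13.8%, was wider than that between controls, 1.66%. The fold change on the log2 scale was -0.05 (SE 0.0951, 95% interval -0.27 to 0.17, limma adjusted p = 0.884).

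JUND, the JUN family member expressed most evenly across resting and growing cells, had 66.5, 66.3 and 73.1 FPKM in the control and 86.4, 75.1 and 73.7 FPKM in the knockdown libraries. The knockdown libraries lay above the controls, but knockdown 3 exceeded control 3 by a narrow margin. On the log2 scale the difference was 0.19 (SE 0.0811, 95% interval 0.0030 to 0.38), with a limma adjusted p of 0.461. JUND thus stood on the opposite side of FOS, and JUN and JUNB lay between them.

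EGR1, a growth factor and stress responsive transcription factor, had the most negative log2 fold change of the 10. It had 10.5, 15.8 and 11.2 FPKM in the control and 9.22, 5.58 and 6.98 FPKM in the knockdown libraries. Control 2 stood above the other controls, knockdown 1 lay closest to the controls, and the groups did not overlap. The knockdown mean was 58.1% of the control mean of 12.5 ± 2.90 FPKM. Its log2 fold change was -0.78 (SE 0.202, 95% interval -1.25 to -0.31), and only 0.0277% of all genes tested had one as low or lower. Its limma adjusted p was 0.211, and replicates varied by 23.2% in the control and 25.3% after knockdown, beside a counting error of 3.77% at 399 to 1114 reads. The value was -0.60 without control 2 and -0.61 without knockdown 2.

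IER2, a nuclear immediate early protein gene, had 10.9, 11.8 and 10.7 FPKM in the control and 12.3, 11.7 and 10.9 FPKM in the knockdown libraries. The groups overlapped over most of their range. The difference amounted to a log2 fold change of 0.06 (SE 0.0735, 95% interval -0.11 to 0.23, limma adjusted p = 0.806).

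IER3, also called IEX-1, encodes a stress-inducible regulator of cell survival. It had 13.4, 12.5 and 14.7 FPKM in the control and 12.1, 10.6 and 9.43 FPKM in the knockdown libraries. The groups did not overlap, although knockdown 1 came close to control 2. The knockdown mean was 79.1% of the control mean, and the log2 fold change was -0.34 (SE 0.103, 95% interval -0.57 to -0.10, limma adjusted p = 0.288). IER3 had 286 to 483 reads per library, a counting error of 5.19%.

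SRF, the factor that binds CArG boxes, had 16.0, 16.3 and 16.7 FPKM in the control and 18.7, 17.8 and 18.0 FPKM in the knockdown libraries. Both groups were tight and did not overlap, with a spread of 2.02% and 2.52% beside a counting error of 2.46%. Its log2 fold change came to 0.15 (SE 0.0573, 95% interval 0.02 to 0.29, limma adjusted p = 0.388). EGR1 and SRF, the 2 genes with CArG boxes in the windows shown above, therefore lay on opposite sides of the control.

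The pattern of each library was described by setting each library against the mean of the controls on the log2 scale. The mean deviation of FOS, EGR1 and IER3 was -0.09, 0.12 and -0.03 in the controls and -0.26, -0.62 and -0.58 in knockdown libraries 1, 2 and 3. All knockdown libraries lay below all controls on this mean, which the choice of these 3 genes fixes, and knockdown 1 lay nearest to the controls. Over all 10 genes the median deviation was 0.07 in knockdown 1, -0.15 in knockdown 2 and -0.11 in knockdown 3. In knockdown 1 only 4 of the 10 genes were below the control mean, against 7 and 8 in knockdown 2 and 3.

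**Figure D2:**
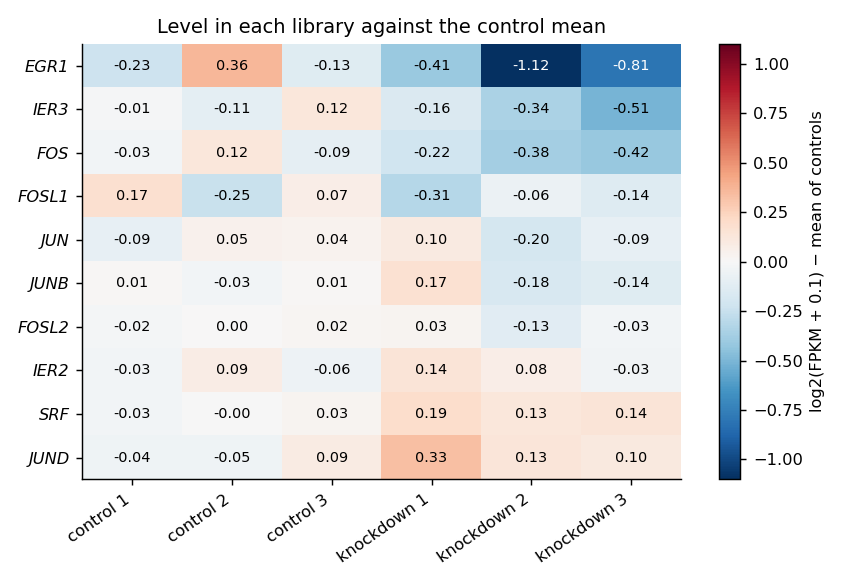
Heat map of the log2(FPKM + 0.1) of each gene (rows) in each library (columns) minus the mean of the 3 controls, blue for lower and red for higher. EGR1 reaches -1.12 in knockdown 2 and -0.81 in knockdown 3, while knockdown 1 is above the control mean for JUN, JUNB, FOSL2, IER2, SRF and JUND.

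Leaving out knockdown 1 brought the 3 lower genes past the threshold. This comparison of 3 control with 2 knockdown libraries called 2.37% of all genes at the adjusted p, and FOS, EGR1 and IER3 were among them. FOS fell by 0.40 on the log2 scale (SE 0.0789, limma adjusted p = 0.0301). EGR1 fell by 0.97 (SE 0.172, adjusted p = 0.0320), the steepest value of the 10. IER3 fell by 0.43 (SE 0.0816, adjusted p = 0.0281). With each other library left out in turn, none of the 10 genes passed.

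At an unadjusted p under 0.05 and without knockdown 1, 4 of the 10 genes were lower, JUNB being the added one, beside 8.67% of all genes. SRF alone was higher, beside 7.34% of all genes. JUNB then had -0.16 on the log2 scale (limma adjusted p = 0.200) and SRF 0.13 (limma adjusted p = 0.278). JUND had 0.12 (limma adjusted p = 0.402), and JUN stood at -0.14 (limma adjusted p = 0.327). FOSL1, FOSL2 and IER2 stayed far from the threshold, with limma adjusted p-values of 0.704, 0.561 and 0.917. The part that knockdown 1 plays in these results was described by leaving it out, and what sets it apart was not tested.

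**Figure D3:**
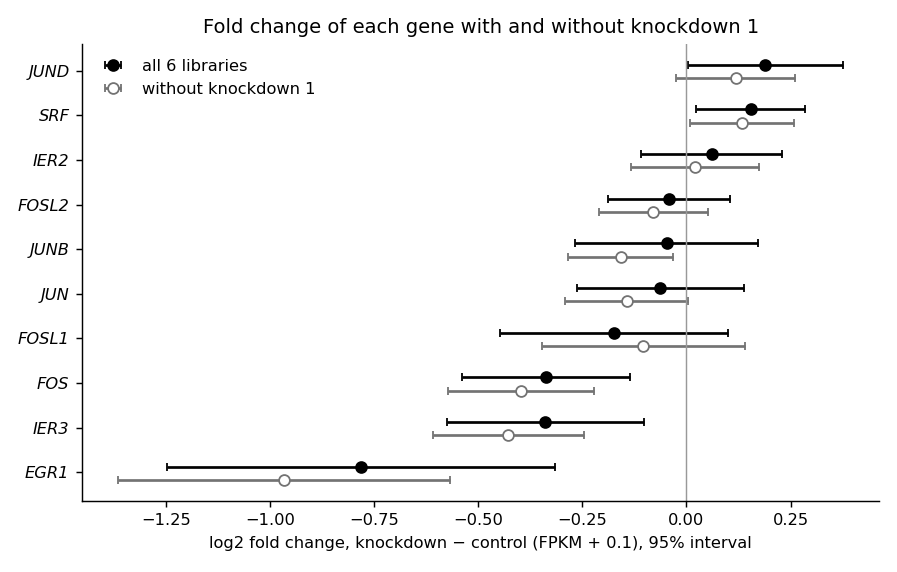
Log2 fold change (x axis, knockdown minus control on log2(FPKM + 0.1)) of each gene (y axis) with its 95% interval from limma, filled for all 6 libraries and open without knockdown 1. The intervals of EGR1, FOS and IER3 lie below 0 in both fits, that of SRF lies above 0 in both, and that of JUND crosses 0 without knockdown 1.

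The genes nearest to FOS in their pattern were sought among 10107 others with a mean of at least 1 FPKM, by the root mean square distance of log2 values over 6 libraries, each gene centred on its control mean. They were MEX3C (distance 0.0298), which encodes an RNA-binding ubiquitin ligase, the integrin subunit gene ITGB6 (0.0402), the fibrinogen chain gene FGA (0.0416), FAM241A (0.0473) and KLF11 (0.0521), a Krüppel-like factor gene. MEX3C had 8.04, 9.14 and 8.17 FPKM in the control and 7.38, 6.47 and 6.18 FPKM in the knockdown libraries, the same order of libraries as FOS except for controls 1 and 3. Among the other 9 genes IER3 was nearest to FOS (distance 0.139, rank 352), followed by JUN (0.210, rank 1566). EGR1 (0.376, rank 9091) and JUND (0.387, rank 9290) were among the farthest, with EGR1 further below its controls than FOS and JUND above them. The 6 points are libraries of 1 line and the distances are a description.

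Genes that pair with AP-1 or act on it were taken from lists by role. Of 13 bZIP partners (FOSB, ATF, BATF, JDP2 and MAF genes, whose leucine zipper proteins dimerize with or compete with AP-1), 9 were tested and none passed the adjusted p. At an unadjusted p under 0.05, 1 was lower and 2 were higher, beside 5.92% and 4.71% of all genes, and the median log2 fold change was 0.08. ATF7 averaged 2.71 FPKM in the control and 3.16 FPKM after knockdown (log2 fold change 0.22, limma adjusted p = 0.377). MAFK averaged 5.69 and 6.43 FPKM (0.17, adjusted p = 0.381), and MAFF 1.03 and 0.782 FPKM (-0.36, adjusted p = 0.395). JDP2, an AP-1 repressor named after its values were seen, had 2.81, 3.06 and 3.04 FPKM in the control and 3.29, 2.28 and 2.11 FPKM in the knockdown libraries. Knockdown 1 was its highest library, and without it JDP2 fell by 0.42 on the log2 scale (limma adjusted p = 0.0371).

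Among other immediate early genes more lay below than above the control, and none passed the adjusted p. Of 36 listed, 31 were tested, 8 were lower at an unadjusted p under 0.05 (25.8%, beside 5.92% of all genes) and 2 were higher (beside 4.71%). The list was chosen with earlier results of these data known, so these shares describe it and are not a test. Log2 fold changes were negative for 21 and positive for 10, where 46.9% of all genes tested were negative, with a median of -0.11. The median deviation from the control mean was -0.04, 0.06 and -0.01 in the controls and -0.06, -0.18 and -0.08 in knockdown libraries 1, 2 and 3. Knockdown 1 thus lay between control 1 and knockdown 3, and knockdown 2 lay lowest.

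Of that list CCN2, which encodes a matricellular growth factor, had 1.52, 1.85 and 1.35 FPKM in the control and 0.973, 0.976 and 0.724 FPKM in the knockdown libraries. Its log2 fold change was -0.76 (limma adjusted p = 0.121). CCN2 was covered by only 38 to 97 reads per library, a counting error of 12.3%. MYC, the proliferation factor gene, had 41.7, 47.7 and 44.6 FPKM in the control and 39.5, 34.4 and 31.6 FPKM in the knockdown libraries. Neither gene had overlapping groups, and the value for MYC was -0.35 on the log2 scale (limma adjusted p = 0.223). BTG2, an antiproliferative gene, lay on the other side, with 56.6, 60.0 and 52.7 FPKM in the control and 85.6, 74.6 and 76.3 FPKM in the knockdown libraries. Its log2 fold change was 0.48 (limma adjusted p = 0.0693).

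Without knockdown 1, 6 genes of that list passed the adjusted p, as 2.37% of all genes did. CCN2 (log2 fold change -0.82, limma adjusted p = 0.0287), MYC (-0.44, adjusted p = 0.0132), the phosphatase gene DUSP2 (-0.46, adjusted p = 0.0430), the repressor gene HES1 (-0.41, adjusted p = 0.0301) and the Krüppel-like factor gene KLF2 (-0.56, adjusted p = 0.0355) fell, and BTG2 rose (0.42, adjusted p = 0.0126). DUSP2, HES1 and KLF2 were named after their values were seen. KLF2 shows how far knockdown 1 stood from its group, with 7.75 FPKM there beside 3.66 and 4.12 FPKM in knockdown 2 and 3 and 5.27 to 6.91 FPKM in the controls. At an unadjusted p under 0.05, 12 were then lower and 2 higher, beside 8.67% and 7.34% of all genes.

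The partners and targets of SRF did not share a direction. Of the 5 cofactor genes, 1 was lower at an unadjusted p under 0.05 and none was higher, beside 5.92% and 4.71% of all genes. ELK3, an ETS partner of SRF, averaged 10.3 FPKM in the control and 8.36 FPKM after knockdown (log2 fold change -0.30, limma adjusted p = 0.259). It fell by 0.37 without knockdown 1 (limma adjusted p = 0.0290). The actin-sensing coactivators MRTFB (5.46 and 4.60 FPKM, -0.25, adjusted p = 0.494) and MRTFA (5.21 and 5.65 FPKM, 0.12, adjusted p = 0.635) lay on opposite sides.

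Of 13 cytoskeletal targets of SRF tested, none was lower and 2 were higher at an unadjusted p under 0.05, beside 5.92% and 4.71% of all genes, with a median log2 fold change of 0.07. TPM4, a tropomyosin gene, had 26.0, 26.3 and 29.2 FPKM in the control and 34.5, 38.1 and 39.9 FPKM in the knockdown libraries. Its groups stood well apart, by 0.46 on the log2 scale (limma adjusted p = 0.0733), and it rose by 0.52 without knockdown 1 (limma adjusted p = 0.0047). TAGLN, the transgelin gene, had 7.00, 6.63 and 6.05 FPKM in the control and 11.0, 8.84 and 6.67 FPKM in the knockdown libraries, so that its groups overlapped (limma adjusted p = 0.439). CNN2, a calponin gene, averaged 69.6 and 73.9 FPKM (0.09, limma adjusted p = 0.680).

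Both corepressor genes of EGR1 were tested and neither passed. NAB1 averaged 6.36 FPKM in the control and 5.55 FPKM after knockdown (log2 fold change -0.19, limma adjusted p = 0.458). NAB2, itself a known EGR1 target, averaged 7.69 and 8.78 FPKM (0.18, limma adjusted p = 0.595), with knockdown 1 the highest library at 10.3 FPKM.

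Of 13 kinases and ubiquitin ligases that act on AP-1, 2 were lower (15.4%, beside 5.92% of all genes) and none was higher (beside 4.71%) at an unadjusted p under 0.05, with a median log2 fold change of -0.01. MAPK8, the gene of the JUN kinase JNK1, had 5.64, 5.70 and 5.25 FPKM in the control and 4.71, 4.31 and 4.44 FPKM in the knockdown libraries. The groups were apart, but the log2 fold change of -0.29 did not pass (limma adjusted p = 0.188). RPS6KA3, the gene of the ERK-activated kinase RSK2, had 10.7, 11.4 and 10.7 FPKM in the control and 6.50, 8.35 and 9.05 FPKM in the knockdown libraries (-0.47, limma adjusted p = 0.192). Without knockdown 1 both passed, as 2.37% of all genes did, with limma adjusted p-values of 0.0445 for MAPK8 and 0.0327 for RPS6KA3. MAPK14, the gene of p38 alpha, averaged 15.7 and 16.9 FPKM (0.10, limma adjusted p = 0.612).

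The AU-rich letters that mark many short-lived mRNAs were counted in the 3′UTRs of GENCODE 29 transcripts, with 1 protein-coding transcript per gene. The pentamer ATTTA was found 5 times in the 806 bases of FOS and 6 times in the 737 bases of IER3, or 6.20 and 8.14 per kilobase. EGR1 held it 1 time in 1234 bases and IER2 not at all. The median over the 10 genes was 1.68 per kilobase, beside 1.54 over 10581 tested genes with a 3′UTR. The longer element TTATTTATT, which contains the pentamer, was found in FOS, FOSL2 and SRF, that is in 30.0% of the 10 genes beside 8.02% of all. These 3 sites are shown because they belong to a gene that lay lower, one that did not separate and one that lay higher. Capitals mark the element, and the sites lie on the plus strand (hg38) at chr14:75282060-75282088 for FOS, chr2:28416355-28416383 for FOSL2 and chr6:43179224-43179252 for SRF.
FOS: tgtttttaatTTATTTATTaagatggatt
FOSL2: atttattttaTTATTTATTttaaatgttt
SRF: atggcaccacTTATTTATTgttgcctttt

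Of the 8 genes of proteins that bind such elements, none was lower or higher at an unadjusted p under 0.05, beside 5.92% and 4.71% of all genes, and the median log2 fold change was 0.04. ZFP36, the gene of the decay factor tristetraprolin and itself an immediate early gene, had 52.4, 53.9 and 52.1 FPKM in the control and 62.9, 54.0 and 58.1 FPKM in the knockdown libraries. Knockdown 2 was nearly level with control 2, and the log2 fold change of 0.14 did not pass (limma adjusted p = 0.529). TIA1 averaged 12.3 and 11.2 FPKM (-0.13, limma adjusted p = 0.669), and ZFP36L2 averaged 38.5 and 41.3 FPKM (0.10, limma adjusted p = 0.677).

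Of 22 AP-1 target genes, 16 were tested and 1 passed the adjusted p, beside 0.129% of all genes. CCND1, the gene of the G1 cyclin D1, had 85.0, 84.7 and 83.0 FPKM in the control and 54.6, 56.2 and 57.0 FPKM in the knockdown libraries. It fell by 0.59 on the log2 scale (SE 0.0563, limma adjusted p = 0.0279) and knockdown 1 lay with its group, but no gene of the table passed when a control library or knockdown 2 was left out. The other targets were spread around 0, with 8 negative and 8 positive values over the 16 and a median of 0.00. Over all genes tested 46.9% were negative. CXCL8, the chemokine gene, averaged 2.01 FPKM in the control and 1.78 FPKM after knockdown (-0.17, limma adjusted p = 0.612), and MMP14, a membrane metalloproteinase gene, 42.7 and 45.6 FPKM (0.10, limma adjusted p = 0.685).

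**Figure D4:**
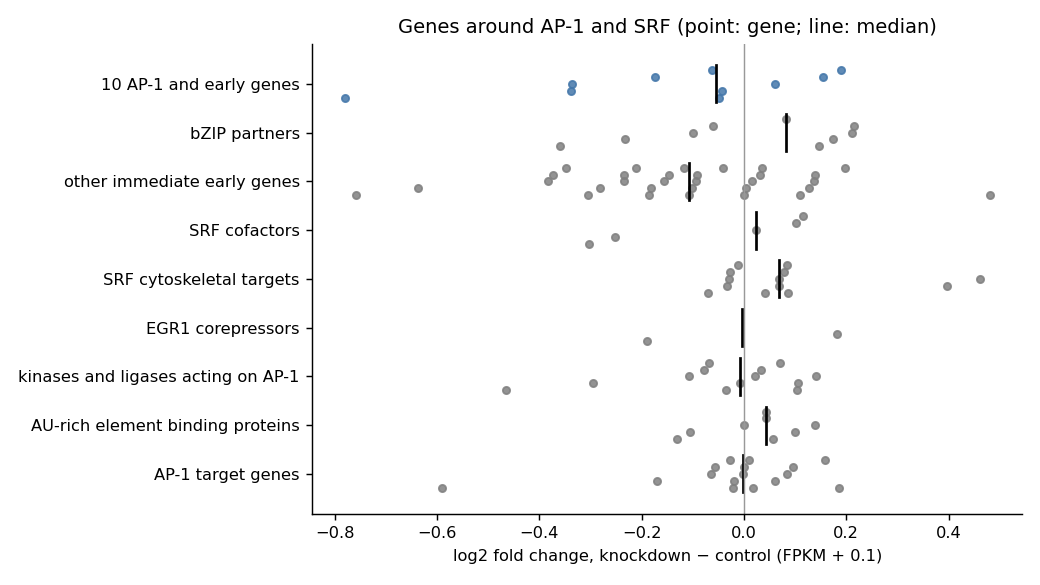
Log2 fold change (x axis, knockdown minus control on log2(FPKM + 0.1)) of each tested gene (points) in the 10 genes (blue) and 8 lists around them (gray, y axis), with the list median as a black line. The medians run from -0.11 for other immediate early genes to 0.08 for bZIP partners, and single genes such as EGR1, CCN2, BTG2, TPM4 and CCND1 lie far from them.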

How the data were processed

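RNA from AGS cells was captured on oligo-dT beads, and the submitters' processing notes name Bowtie2, TopHat and hg38, without versions. The authors deposited a table of FPKM (fragments per kilobase of gene, scaled to library depth) for 11846 genes in 6 libraries, grouped here by their titles. The read counter, annotation, strand setting and any filter of low values were not given in the sources used here. Since values of a gene are multiples of what 1 read is worth, whole reads were recovered for 100% of genes (tolerance 0.001 to 0.05 reads, up to 200000 reads). On simulated data the step was right for 98.6% of 1497 genes. Totals were 22288756, 21106159 and 22918091 reads in control libraries 1 to 3 and 19009778, 21468016 and 21169123 in knockdown libraries 1 to 3.

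Groups were compared with limma 3.58.1 (R 4.3.3; lmFit, then eBayes, both trend and robust on) with log2(FPKM + 0.1), two-sided, for the 10813 genes whose mean reached 0.5 FPKM. Fold changes on this scale understate those of low genes. Benjamini-Hochberg adjustment ran over all genes tested, with a threshold of 0.05. An exact permutation test of 3 against 3 libraries cannot go below 0.1 and was not used. Alternatives were other pseudocounts, filters, scaling and weights, a replicate block, each library left out, and limma-voom on recovered reads, chosen after seeing the data. The code was tested on simulated data.

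The 10 genes and all lists were chosen with earlier results of these data known. All 10 genes are named, and of each list the 3 tested genes with the smallest p (fewer in shorter lists) and any gene past the adjusted p. The labels call the replicates biological and give no batch, and a batch that follows the groups cannot be told apart from the knockdown.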

Additional observations from a re-analysis of the deposited data

How the results depend on the processing

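FOS, EGR1 and IER3 kept a negative fold change and an unadjusted p under 0.05 in all 15 alternatives, and passed the adjusted p only without knockdown 1. Their adjusted p-values by limma ran from 0.0301 to 0.595, 0.0320 to 0.601 and 0.0281 to 0.763. The number of the 10 genes past the adjusted p was 0 to 3 with 1 library left out, and that of all genes 0 to 256, where 14 passed in the full comparison. All genes past it numbered 0 without the trend and robust settings (1168 at an unadjusted p under 0.05) and 1 with a replicate block. Library numbers were not taken as pairs. Same-numbered deviations from the group means correlated at -0.34, -0.47 and -0.12, and whether such libraries shared a preparation was not tested. With the block, 3 of the 10 genes were still lower and 0 higher at an unadjusted p under 0.05, which 680 of 10813 genes met in either direction. Of the higher genes, SRF kept such a p in 9 and JUND in 7 alternatives. Without knockdown 2, FOSL2 (0.00074), JUN (0.0038) and JUNB (0.017) turned to positive log2 fold changes near 0. Over single libraries left out their ranges were -0.079 to 0.00074, -0.14 to 0.0038 and -0.16 to 0.017. With limma-voom on recovered reads, added after seeing the data, 19 genes passed, and none of the 10. The causes of these shifts were not tested. For EGR1, counting error was 3.77% beside a spread of 23.2% between controls.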
